A study of Homo sapiens with 4 samples.

Results

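Isolated BrdU sites were stretches of the human genome that carried a BrdU peak while no other peak lay within 100 kb on either side. BrdU is a thymidine analogue that dividing cells build into newly made DNA, and its local accumulation after a pulse was used in the study to map places where replication forks stall or pause. The 33295 deposited peaks came from BJ-hTERT cells, a telomerase-immortalized line of human skin fibroblasts, which were arrested by serum starvation, released, and labelled with BrdU at 16, 19, 22, 24 and 28 h in 2 repeats. Each repeat had its own Input DNA library, against which the peaks of its timepoints were called. The peaks of all timepoints stood in 1 list that named no timepoint, no repeat and no score, so no spread between repeats could be given for any value here, and the number of reads behind a peak is unknown. The 4 RNAPII and PCNA ChIP-Seq samples of the series, at 14 and 16 h, were not analysed here.

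Overlapping or touching peaks were merged into 25634 sites, of which 25287 lay on the 22 autosomes. Of the autosomal sites, 2255 (8.92%) had no other site within 100 kb, measured from edge to edge, and these are called isolated. They held 3124 of the 32710 autosomal peaks and covered 723.3 kb. The comparison group was the 15713 sites (62.1%) with another site within 10 kb, called clustered, and the remaining 7319 sites had their nearest neighbour between those limits. The isolated sites were chosen by the measured positions of the peaks, so their spacing is a description and not a result. Width, overlap, sequence and gene context played no part in the choice, apart from the merging of peaks that touch.

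DNA is copied in domains that differ in the time of copying and in the number of origins from which forks start. Tandem repeats, in which a unit is copied head to tail, are known as sequences that can slow a fork, because their single strands may fold into hairpins and other structures. Very long genes are known in many cell types for common fragile sites, regions that break when replication is slowed.

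The sequences of 5 isolated sites at the extremes of depth, repeats and composition, and of a typical clustered site for comparison, are given first. All are read from the plus strand of hg38, and where a site was wider than 300 bp its central 300 bp are given. Capitals mark the longest perfect repeat of a unit of up to 6 bp within the bases given. In the tandem array on chromosome 1 they mark instead the first copy of its unit.
Clustered site closest to the median of its group in width and AT content, chr3:123912812-123913105: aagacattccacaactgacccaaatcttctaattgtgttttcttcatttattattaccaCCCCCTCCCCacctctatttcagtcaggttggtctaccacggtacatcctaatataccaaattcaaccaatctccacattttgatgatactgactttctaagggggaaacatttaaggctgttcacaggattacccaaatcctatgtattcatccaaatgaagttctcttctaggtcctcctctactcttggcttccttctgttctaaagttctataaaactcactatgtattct
Isolated site at the largest overlap depth, chr5:68965241-68965540: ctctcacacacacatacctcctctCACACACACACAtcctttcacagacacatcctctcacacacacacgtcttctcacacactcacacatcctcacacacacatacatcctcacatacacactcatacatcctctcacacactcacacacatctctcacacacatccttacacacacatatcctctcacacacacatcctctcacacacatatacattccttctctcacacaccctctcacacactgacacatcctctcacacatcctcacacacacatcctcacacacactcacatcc
Isolated tandem array with the highest self-match, chr1:236714172-236714471: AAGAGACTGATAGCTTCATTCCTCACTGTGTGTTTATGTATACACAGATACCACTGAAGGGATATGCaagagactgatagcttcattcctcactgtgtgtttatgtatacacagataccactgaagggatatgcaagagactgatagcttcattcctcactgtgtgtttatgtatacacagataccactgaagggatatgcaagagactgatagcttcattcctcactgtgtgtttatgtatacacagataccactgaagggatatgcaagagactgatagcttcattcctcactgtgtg
Isolated site with the longest short tandem repeat, chr17:4462258-4462557: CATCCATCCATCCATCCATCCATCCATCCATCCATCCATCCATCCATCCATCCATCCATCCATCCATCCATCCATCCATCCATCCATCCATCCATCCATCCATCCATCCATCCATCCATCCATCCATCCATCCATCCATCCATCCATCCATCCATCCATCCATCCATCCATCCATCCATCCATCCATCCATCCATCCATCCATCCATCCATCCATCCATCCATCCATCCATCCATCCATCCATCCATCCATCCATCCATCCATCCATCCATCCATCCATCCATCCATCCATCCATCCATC
Isolated site with the highest AT content, chr17:50813827-50814016: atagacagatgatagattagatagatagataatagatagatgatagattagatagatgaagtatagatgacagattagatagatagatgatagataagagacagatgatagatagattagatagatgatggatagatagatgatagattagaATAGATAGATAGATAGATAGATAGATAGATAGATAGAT
Isolated site with the lowest AT content, chr19:2773069-2773316: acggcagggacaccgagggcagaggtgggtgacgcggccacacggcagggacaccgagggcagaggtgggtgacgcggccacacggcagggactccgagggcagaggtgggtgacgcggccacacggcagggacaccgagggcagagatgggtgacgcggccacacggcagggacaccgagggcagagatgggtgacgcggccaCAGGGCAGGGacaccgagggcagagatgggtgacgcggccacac
The typical clustered site was a single peak whose longest perfect repeat measured 10 bp. The site shown for the largest depth was the widest of 32 isolated sites at that depth. It was an imperfect CA-rich repeat, made of 8 peaks of which 5 lay over 1 base. In the array with the highest self-match, a unit of 67 bp followed itself without a mismatch within the first intron of ACTN2, which encodes a muscle alpha-actinin. The longest short tandem repeat ran through all 326 bp of a site in intron 8 of SPNS3, of 11 introns, with a unit of 4 bp. At the extremes of composition, the site with 73.2% AT, which overlapped no annotated gene, ended in a repeat of a 4 bp unit over 38 bp, and the site with 28.2% AT, in the first intron of SGTA, matched itself at 97.6% of its positions at an offset of 41 bp.

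The gaps around the isolated sites were wide. The distance to the nearest other site had a median of 217.4 kb, with a lower quartile of 141.8 kb and an upper quartile of 404.5 kb, whereas in clustered sites its median was 1.48 kb. The nearest site was more than 500 kb away for 415 isolated sites (18.4%) and more than 1 Mb away for 128 (5.68%). For the 5 most remote sites, on chromosomes 4, 5, 9 and 21, the nearest other site was 2441.3 to 3991.7 kb away. All 5 were single peaks of 229 to 300 bp, and none was an array. At the limit itself, the 5 isolated sites closest to it had gaps of 100162 to 100234 bp, and the 5 sites just short of it had gaps of 99783 to 99984 bp.

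Isolated sites were often neighbours of each other, which the choice itself favours, since a gap over 100 kb counts for both sites beside it. They formed 930 runs in which no other site intervened, 415 isolated sites stood alone between sites that were not isolated, and 1374 (60.9%) were in runs of 3 or more. The longest run held 21 sites over 13.7 Mb of chromosome 6 (chr6:86041124-99721284), and no site in it was an array. With the longest protein-coding gene taken at each site, the genes with a site in this run were GJB7, GPR63 and ORC3. They encode a gap junction protein, an orphan receptor and a subunit of the origin recognition complex. The next runs held 16 sites over 16.5 Mb of chromosome 4 and 14 sites over 9.71 Mb of chromosome 14, where NRXN3, a presynaptic adhesion molecule, was among the genes with a site.

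Isolated sites varied less over the autosomes in number per Mb than in share. They numbered 0.818 per Mb of known sequence over all autosomes, from 0.653 on chromosome 13 to 1.11 on chromosome 19, with at most 0.936 on any other. By contrast, all BrdU sites together ranged from 4.84 per Mb on chromosome 13 to 12.2 per Mb on chromosome 1. The isolated share was highest on chromosomes poor in sites, with 15.3% on chromosome 16 and 13.5% on both chromosomes 13 and 18, and lowest on chromosomes rich in them, with 6.55% on chromosome 15 and 6.60% on chromosome 1. Across the 22 chromosomes the share and the density of sites had a Pearson r of −0.903 and a Spearman rho of −0.903, where both share the count of sites, while the density of isolated sites and of all sites had a rho of 0.154. Because the chromosomes differed in this way, the differences and ratios from the linear model below were taken within chromosomes, whereas the shares, means and medians of the groups were pooled over them.

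**Figure D1:**
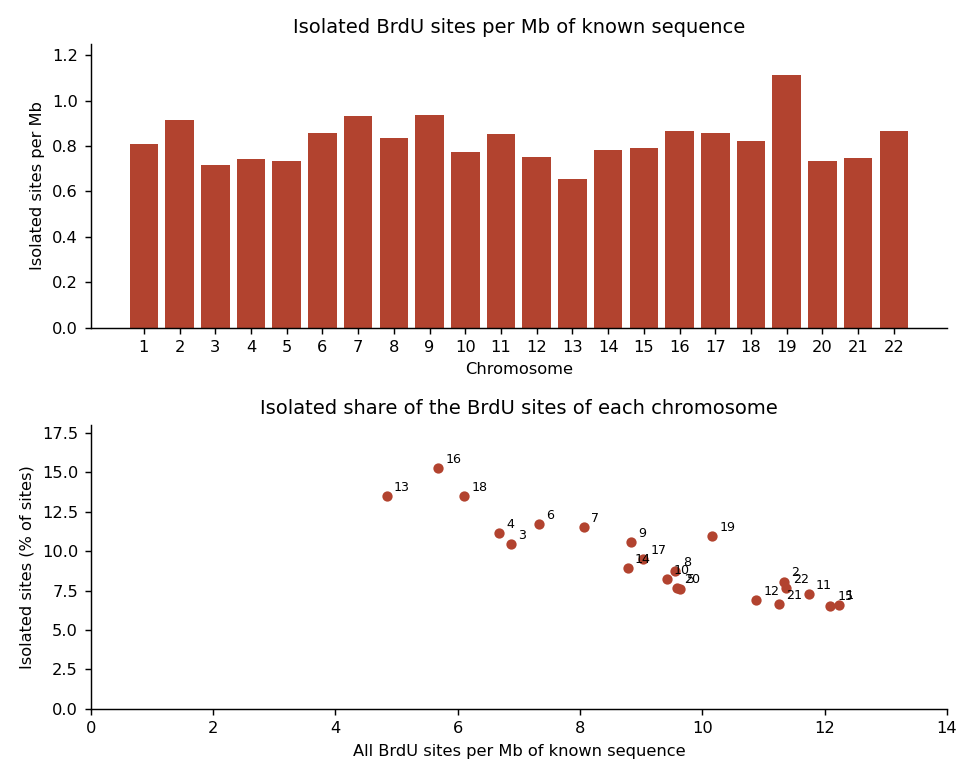
Top, isolated BrdU sites per Mb of known sequence on each autosome (bars). Bottom, the share of the sites of a chromosome that were isolated (%) against all BrdU sites per Mb, 1 labelled point per chromosome. The density of isolated sites stays between 0.653 and 1.11 per Mb, whereas their share falls from 15.3% to 6.55% as the density of all sites grows.

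In the comparisons, a linear model over sites held a term for isolated against clustered and a term per chromosome, and its 95% interval let sites of the same 1 Mb window vary together. These intervals, and the Wilson intervals given with shares, cover the spread between sites or the error of counting alone. Sites of 1 list are not replicates of the experiment, so a difference is described by whether its interval holds 0, and no p-value is given.

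Isolated sites were narrower than clustered ones. Their median width was 254 bp (quartiles 209 and 341 bp, n = 2255), against 293 bp (quartiles 227 and 415 bp, n = 15713) in clustered sites. Within chromosomes an isolated site had 0.889 times the width of a clustered site (95% interval 0.871 to 0.907), and its mean log2 width was lower on 21 of 22 chromosomes, with chromosome 12 as the exception. The difference in log2 width was −0.169 (−0.199 to −0.14), and −0.391 (−0.433 to −0.348) when peaks within 1 kb were merged into a site. Such merging by itself widens sites with a close neighbour, and the lower quartile of the nearest-site distance in clustered sites was 0.401 kb. The larger value is therefore no separate support for the difference. Among sites of 1 peak, the medians were 233 bp in 1795 isolated and 266 bp in 12571 clustered sites. The smallest width was 190 bp in both groups. Of the isolated sites, 31.6% measured under 220 bp, against 21.4% of the clustered sites. A width of 700 bp or more was reached by 4.75% of the isolated and 6.03% of the clustered sites.

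**Figure D2:**
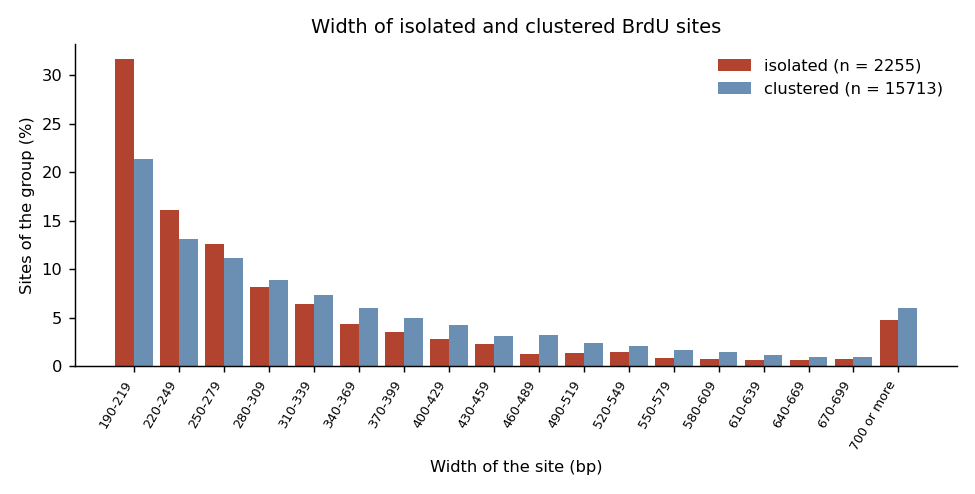
Share of isolated (n = 2255) and clustered (n = 15713) BrdU sites in each class of width (bp). The class from 190 to 219 bp holds 31.6% of the isolated and 21.4% of the clustered sites.

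The 3 widest isolated sites were tandem arrays, defined below by how well a sequence matches itself when shifted. A site of 2012 bp on chromosome 9 (chr9:138231393-138233404), in a lncRNA gene, was built of 5 peaks and matched itself at 90.2% of its positions at an offset of 63 bp. A site of 1979 bp on chromosome 7 held 6 peaks and had a self-match of 89.0% at 21 bp. A site of 1926 bp in intron 18, the last, of TMEM87B on chromosome 2 held 4 peaks and had a self-match of 95.1% at 38 bp. Each of them reached a depth of 4 peaks over 1 base. The widest clustered site measured 9341 bp.

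The overlap depth is the largest number of peaks that lie over 1 base of a site. It never exceeded 5 on the autosomes, which is the number of timepoints, but the list gives neither the timepoint nor the repeat of a peak. Per the study's methods the repeats were analysed together, without a statement of how their peaks entered the list. Peaks of different timepoints in a repeat shared its Input DNA, so they are not independent. Stacking of 2 or more peaks was about as frequent in both groups: 460 isolated sites (20.4%, 95% Wilson interval 18.8 to 22.1%) and 3142 clustered sites (20.0%, 19.4 to 20.6%) were stacked. The difference of 0.063 percentage points had an interval from −1.94 to 2.06. It was −4.54 points (−6.89 to −2.18) when isolation was set at 200 kb, and 5.98 points (4.47 to 7.49) with width as a covariate, which was chosen after the data were seen.

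The groups parted at greater depth, in a measure added after the data were seen. A depth of 3 or more was reached by 212 isolated sites (9.40%) and by 431 clustered sites (2.74%). In the sites between the limits this share was 5.7%. The difference within chromosomes was 6.47 percentage points (95% interval 5.11 to 7.84), and it had this direction on 21 of 22 chromosomes, chromosome 13 being the exception. A depth of exactly 2 was found in 11.0% of the isolated and in 17.3% of the clustered sites. At a depth of 5 there were 111 autosomal sites. Of them, 32 (28.8%) were isolated and 35 clustered, and the rest lay between the limits. Among all autosomal sites, isolated ones were 8.92%. The widest isolated sites at this depth were the CA-rich site on chromosome 5 (1519 bp, 8 peaks), with a self-match of 61.1% that is below the limit for an array, and arrays of 1415 bp on chromosome 13 and 1389 bp on chromosome 4, with 7 peaks each. These 3 sites overlapped no protein-coding gene.

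**Figure D3:**
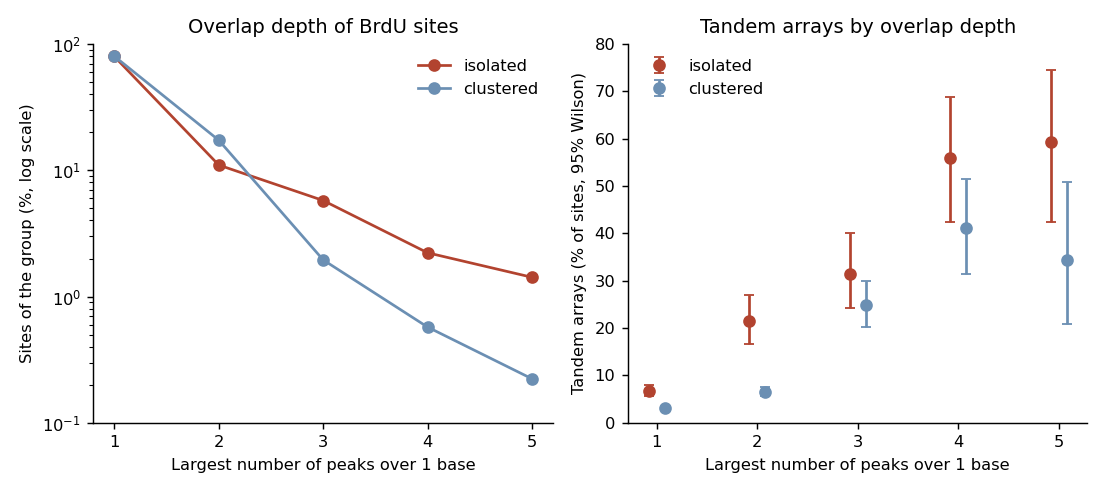
Left, share of isolated and clustered BrdU sites at each overlap depth (%, log scale). Right, share of sites at each depth that were tandem arrays (points, with 95% Wilson intervals as bars). At a depth of 2 the isolated group has the smaller share of sites but 21.4% arrays against 6.49%, and at depths of 3 to 5 it has the larger share of sites.

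Tandem arrays were more frequent among isolated sites than among clustered ones. A site was counted as an array when a shift of its sequence by some offset, at most 120 bp, brought equal bases together at 70% or more of the positions compared (the self-match), as for the 67 bp unit in ACTN2 shown above. This held for 261 isolated sites (11.6%, 95% Wilson interval 10.3 to 13.0%) and 691 clustered sites (4.40%, 4.09 to 4.73%), with 6.87% in the sites between the limits. The difference within chromosomes was 6.87 percentage points (95% interval 5.29 to 8.44). Its size depended on the limit for the self-match, with 14.5 points (12.3 to 16.7) at 60% and 3.77 points (2.73 to 4.81) at 80%. The direction was the same on 19 of 22 chromosomes. On the other three the clustered sites had more arrays: 35.4% against 20.0% on chromosome 21, 21.3% against 14.1% on chromosome 16 and 6.33% against 4.69% on chromosome 13.

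Arrays and depth went together in both groups. Among isolated sites, arrays made up 6.69% of those of depth 1 (120 of 1795), 21.4% at depth 2 (53 of 248), 31.5% at depth 3 (41 of 130), 56.0% at depth 4 (28 of 50) and 59.4% at depth 5 (19 of 32). In clustered sites the same shares were 3.10, 6.49, 24.8, 41.1 and 34.3%, and the Wilson intervals of the groups did not overlap at depths of 1 and 2 but did from 3 upward. Among sites of 1 peak the array share was still higher in isolated sites, by 3.49 percentage points (2.14 to 4.84). When arrays were left out, a choice made after the data were seen, 16.0% of isolated and 18.9% of clustered sites were stacked, a difference of −3.27 percentage points (−5.20 to −1.34), whereas a depth of 3 or more remained more frequent in isolated sites, by 4.02 points (2.82 to 5.21).

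Most isolated arrays matched themselves best at an offset longer than the unit of a microsatellite. The best offset can be a multiple of the unit, so it does not always give the length of the unit. The offset of the best self-match was 6 bp or less in 23 of the 261 arrays (8.81%), 7 to 20 bp in 37, 21 to 40 bp in 66, 41 to 80 bp in 63 and 81 to 120 bp in 72, with a median of 42 bp. The median was 46 bp in the 691 clustered arrays. Isolated arrays had a median width of 365 bp, against 247 bp for isolated sites that were no array, and 141 of the 261 were stacked. The 3 with the highest self-match, at 100% each, were those in ACTN2 and SPNS3 and a site in FAM3B on chromosome 21 with a unit of 47 bp.

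Many isolated arrays lay near the ends of chromosomes. Of the 261 arrays, 82 (31.4%, 26.1 to 37.3%) were within 5 Mb of a chromosome end, against 6.57% (5.56 to 7.74%) of the isolated sites that were no array. Clustered arrays had a still larger share there, 42.6% (38.9 to 46.3%), and 24.6% of them, but 3.07% of the isolated arrays, lay within 100 kb of an end or of a run of unknown bases. Among the 213 isolated sites within 5 Mb of an end, 38.5% were arrays and 46.9% were stacked, while among the 2042 farther in these shares were 8.77 and 17.6%. Of the clustered sites farther in, 2.72% were arrays, and the difference between the groups there was 5.97 percentage points (4.53 to 7.41).

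Arrays hold sequence that occurs more than once in the genome, which bears on where short reads can be placed. On average 45.3% of the 36-mers of an isolated array occurred elsewhere or again in the assembled genome, against 10.7% in the other isolated sites. Over all sites the mean was 14.7% (SD 25.7) in isolated and 11.4% (SD 23.1) in clustered sites, a difference of 3.19 percentage points (1.62 to 4.76). With 24-mers it was 7.69 points (5.91 to 9.47), and without arrays 0.65 points (−0.819 to 2.12). Every 36-mer was single-copy in 1029 isolated sites (45.6%) and in 57.5% of clustered ones. How reads with several equal matches were treated is not given in the sources used here, and the part of multi-copy sequence in the array counts was not tested.

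Short tandem repeat tracts, which extend over 20 bp or more without a mismatch and have a unit no longer than 6 bp, were also more frequent in isolated sites. They were present in 133 isolated sites (5.90%, 5.00 to 6.95%) and 646 clustered sites (4.11%, 3.81 to 4.43%), and the difference was 1.87 percentage points (0.745 to 3.00), with the same direction on 16 of 22 chromosomes. With tracts from 12 bp it was 4.45 points (2.21 to 6.69), and from 30 bp 1.01 points (0.315 to 1.70). Among sites of 1 peak it was 0.148 points (−0.762 to 1.06), and with isolation at 200 kb 0.83 points (−0.452 to 2.11). The units differed between the groups: tetranucleotide repeats were the most frequent in isolated sites, with 62 of 133 tracts (46.6%), followed by 32 with a 6 bp unit and 23 with a 2 bp unit. In clustered sites, 244 of 646 tracts (37.8%) had a 2 bp unit, 154 a 5 bp unit and 152 a 4 bp unit. The median tract measured 26 bp in both groups. The longest reached 326 bp in isolated and 84 bp in clustered sites.

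No difference in the AT content of isolated and clustered sites was found beyond its interval. The mean was 60.5% (SD 5.79) in isolated and 60.5% (SD 5.39) in clustered sites, and the difference of 0.0848 percentage points had an interval from −0.228 to 0.398. With isolation at 200 kb, however, isolated sites were 0.559 points richer in AT (0.186 to 0.933). Isolated arrays averaged 53.8% AT (SD 7.20) and the other isolated sites 61.3% (SD 4.96). Without arrays, isolated sites were 0.596 points richer in AT than clustered ones (0.322 to 0.869), and among sites of 1 peak 0.682 points richer (0.383 to 0.981). More than 70% AT was rare, with 9 isolated (0.399%) and 58 clustered sites (0.369%).

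The surroundings of isolated sites were richer in AT. In the 50 kb on either side of a site, AT averaged 58.7% (SD 5.19) around isolated and 58.1% (SD 4.58) around clustered sites, with a difference of 0.693 percentage points (0.324 to 1.06) and the same direction on 15 of 22 chromosomes. Around the sites between the limits the mean was 56.8%, below that of both groups. A site exceeded its surroundings by 1.77 points on average when isolated and by 2.39 points when clustered, a difference of −0.608 (−0.907 to −0.31). With isolation at 200 kb the difference in the surroundings was 1.71 points (1.30 to 2.11) and that relative to them −1.15 (−1.51 to −0.787). With isolation at 50 kb the difference in the surroundings was −0.136 points (−0.469 to 0.196) and that relative to them −0.0876 (−0.345 to 0.169). When only 5 kb on either side were used, the intervals of both differences held 0, at 0.18 points (−0.197 to 0.556) and −0.095 points (−0.365 to 0.175). With the AT content of the 50 kb as a covariate, the isolated sites themselves were 0.279 points poorer in AT (−0.522 to −0.0354).

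A and T were split more unevenly between the strands in isolated than in clustered sites. On the strand richer in T, thymidine made up 39.3% of the bases (SD 5.54) in isolated and 37.3% (SD 5.27) in clustered sites. The difference, in a measure added after the data were seen, was 2.04 percentage points (1.77 to 2.32), and it was found on 21 of 22 chromosomes, with chromosome 22 as the exception. BrdU takes the place of thymidine, and whether the uneven split bears on the labelling was not tested. The AT content, which counts thymidine on both strands, had a mean of 60.5% in both groups. With width as a covariate, chosen after the data were seen, the difference in thymidine on the T-richer strand was 2.07 points (1.79 to 2.34). CpG was absent from 687 isolated sites (30.5%, 28.6 to 32.4%) and from 22.8% (22.2 to 23.5%) of clustered sites, a share that is not corrected for width. Counted per 100 bp, CpG was close in both groups, with means of 0.611 (SD 0.821) in isolated and 0.630 (SD 0.771) in clustered sites.

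**Figure D4:**
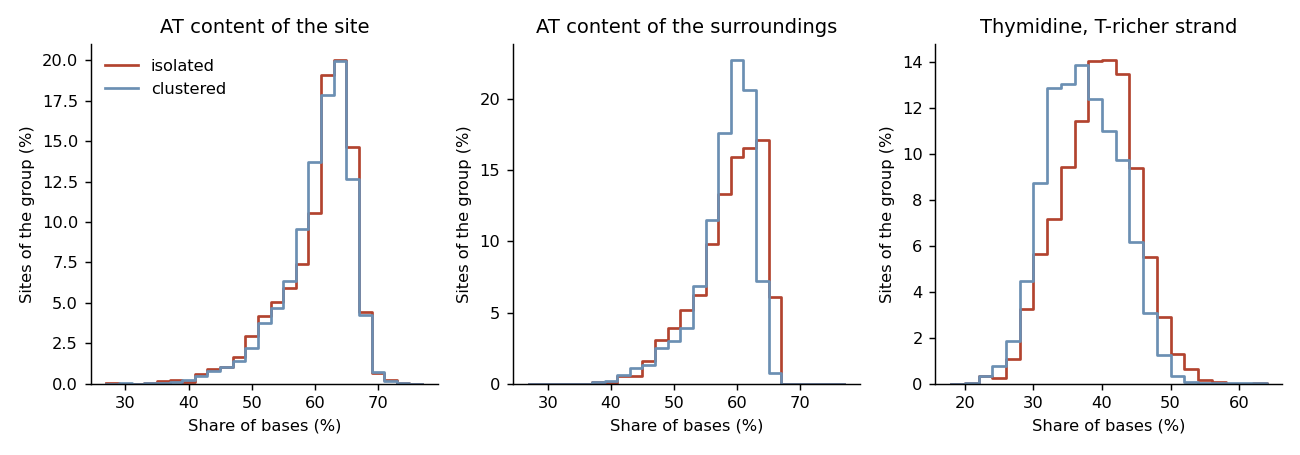
Share of isolated and clustered BrdU sites (%) by AT content of the site, by AT content of the 50 kb on either side, and by the share of thymidine on the strand richer in it, in classes of 2 percentage points. The curves of the site AT content lie close together, at means of 60.5% each, and the thymidine curve of isolated sites is shifted to the right, at means of 39.3 and 37.3%.

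Isolated sites overlapped protein-coding genes less often than clustered sites. Of them, 1054 (46.7%, 44.7 to 48.8%) overlapped a protein-coding gene, against 8224 clustered sites (52.3%, 51.6 to 53.1%), a difference of −5.93 percentage points (−9.35 to −2.51), or −2.11 (−5.25 to 1.02) with isolation at 50 kb. In the sites between the limits this share was 56.0%, above that of both groups. Among tandem arrays the order was the opposite, with 49.4% (43.4 to 55.5%) of isolated and 38.9% (35.4 to 42.6%) of clustered arrays in such a gene. Exons were hit by 55 isolated sites (2.44%, 1.88 to 3.16%) and by 3.51% (3.24 to 3.81%) of clustered ones, a difference of −1.12 points (−1.94 to −0.313). When chromosome 2 was left out, the latter was −0.879 points with an upper bound of 0.00174. First introns of the canonical transcript held 9.31% of isolated and 10.8% of clustered sites, and later introns 30.7 and 29.3%. Other parts of a protein-coding gene, outside its exons and the introns of that transcript, held 4.26% of isolated and 8.66% of clustered sites. A lncRNA gene alone was overlapped by 14.7 and 14.9%. No gene of any type was overlapped by 848 isolated sites (37.6%, 35.6 to 39.6%), against 31.3% (30.6 to 32.1%) of clustered sites.

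The nearest TSS of a protein-coding gene was farther away. Its median distance was 85.2 kb from isolated sites (quartiles 29.0 and 268.4 kb) and 48.5 kb from clustered sites (quartiles 20.2 and 110.5 kb), and the distance was 1.80 times as large within chromosomes (1.62 to 2.00). More than 500 kb separated 299 isolated sites (13.3%) from a TSS, but 3.04% of the clustered sites. Within 500 kb on either side, protein-coding genes covered 46.5% of the bases around isolated sites (SD 27.6) and 54.7% around clustered sites (SD 22.1), a difference of −8.45 percentage points (−10.7 to −6.22). No such base was found around 195 isolated sites (8.65%, 7.56 to 9.88%), against 2.49% (2.26 to 2.74%) of clustered sites. These 195 sites had a mean AT content of 63.0% and 11 arrays (5.64%, 3.18 to 9.82%), and 13 of them (6.67%) were stacked. In the 391 clustered sites of this kind arrays were more frequent, with 77 (19.7%, 16.1 to 23.9%), the opposite of the order in all sites, and 22.8% were stacked.

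Isolated sites differed among themselves with their distance from other sites. From the 1045 sites with the nearest other site at 100 to 200 kb, through 795 at 200 to 500 kb and 287 at 500 kb to 1 Mb, to 128 beyond 1 Mb, the mean AT content of the surroundings was 57.4, 59.1, 60.8 and 61.8%. In the same order, the share inside protein-coding genes was 50.4, 46.2, 39.0 and 37.5%, and the median distance to a TSS was 66.4, 86.2, 161 and 212 kb. Stacked sites made up 25.7, 17.7, 10.8 and 14.8%. Arrays made up 12.2% (10.3 to 14.3%), 11.6, 10.5 and 9.38% (5.44 to 15.7%), with Wilson intervals that overlap throughout. The distance chose the members, so these values describe how they vary among themselves.

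Isolated sites in protein-coding genes had longer host genes than clustered ones. The longest gene that a site overlapped had a median length of 177 kb for isolated and 134.5 kb for clustered sites, and within chromosomes it was 1.34 times as long (1.21 to 1.48, n = 1054 and 8224). Genes over 500 kb hosted 211 of the 1054 isolated sites in genes (20.0%, 17.7 to 22.5%), against 6.34% (5.83 to 6.88%) of the clustered ones. Of the sites in host genes over 500 kb, 19.2% were isolated (17.0 to 21.7%), compared with 6.89% in genes of 100 to 500 kb, 6.05% in genes of 30 to 100 kb and 10.3% in genes under 30 kb. A long gene offers more room for a gap of 100 kb on either side of a site, and the part of this room in the shares was not tested.

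**Figure D5:**
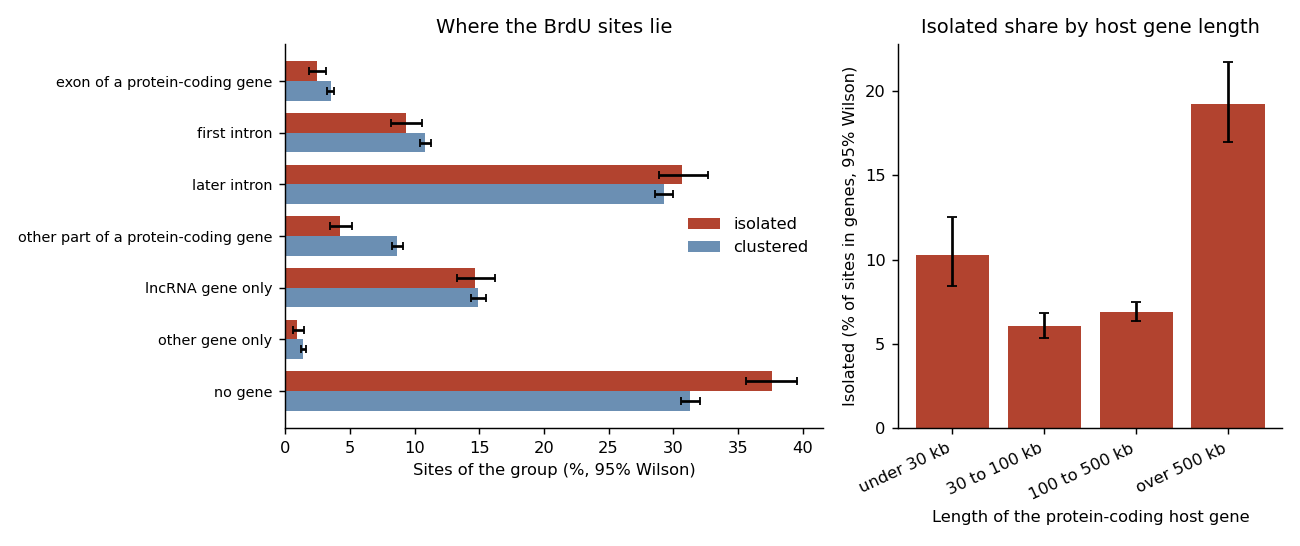
Left, share of isolated and clustered BrdU sites (%) in each gene context, with 95% Wilson intervals. Right, isolated sites as a share of all sites in protein-coding host genes (%), by length of the host gene, with 95% Wilson intervals. No gene is overlapped by 37.6% of isolated and 31.3% of clustered sites, and the isolated share is 19.2% in genes over 500 kb.

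At the level of genes, 1019 of 19111 autosomal protein-coding genes (5.33%) held an isolated site, and of the 309 genes over 500 kb 140 did (45.3%). In 941 genes there was 1 isolated site, in 61 there were 2, in 16 there were 3, and in 1 gene there were more. That gene was RBFOX1, a regulator of alternative splicing in neurons and muscle, with 7 sites over 2473.5 kb (chr16:5239802-7713340), all of them isolated. From the start of the gene they measured 268, 199, 1119, 919, 314, 840 and 483 bp, at depths of 1, 1, 3, 1, 1, 2 and 2, and their AT contents were 55.6, 57.8, 53.8, 54.1, 65.3, 65.5 and 65.8%. The fourth, in intron 3, was an array by its self-match of 70.1%, which is at the limit of the definition. The gaps between a site of RBFOX1 and its nearest neighbour ran from 125.9 to 497.3 kb.

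Of the 16 genes with 3 isolated sites, the 9 longest are described with it. CNTNAP2, a neurexin-like adhesion protein of axons, had sites of 278, 199 and 199 bp, and the first and the last, with 44.2 and 47.2% AT, were arrays with self-matches of 78.6 and 93.5%. EYS, a matrix protein of photoreceptors, LRP1B, a receptor of the LDL receptor family, CCSER1, MAGI2, a synaptic scaffold, LINGO2 and RABGAP1L, a GTPase-activating protein, held 3 single-peak sites of 196 to 404 bp each, and none of these was an array. In NTM, an adhesion molecule of neurons, the first site stacked 5 peaks over 1 base within 408 bp, with 48.3% AT and a self-match of 69.4%, just short of an array, and the second was an array in a single peak. CACNA2D3, an auxiliary subunit of voltage-gated calcium channels, had 5 sites in all, of which 3 of 199 to 202 bp were isolated, and 1 of these was an array. None of these 10 genes held a clustered site.

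Common fragile site genes were taken as a list, and 18 of the 26 (69.2%) held an isolated site. With a median length of 1408.5 kb they are set beside the 45.3% of all genes over 500 kb rather than the 5.33% of all genes. That class has no upper limit, and its median length is not given here. The share of genes with an isolated site rose with length, from 16.3% at 100 to 500 kb to 45.3% over 500 kb. Length is therefore not matched for this list or the next. Together they had 71 sites, of which 35 (49.3%) were isolated and 12 clustered, beside 19.2% isolated among the sites of all host genes over 500 kb, and the median number of isolated sites per gene was 1. RBFOX1, CNTNAP2, LRP1B and CCSER1 led the list. Among 36 neuronal adhesion and synapse genes, with a median length of 1103.6 kb, 17 (47.2%) held an isolated site, close to the background of genes over 500 kb. Their 44 sites comprised 28 isolated (63.6%, beside the same 19.2%) and 6 clustered ones. The leading members were NTM, FSTL5, a secreted follistatin-like protein with sites of 199, 202 and 230 bp, PTPRD, a receptor tyrosine phosphatase with 2 sites, and CSMD1, with 2 isolated sites among 6.

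Genes of fibroblast matrix and cytoskeleton held 1 isolated site in all. Of 30 genes, 14 held a site of any kind, with 82 sites of which 69 were clustered, 31 of them in a single gene, beside 8224 clustered of the 13376 autosomal sites in protein-coding genes. Among the list, 1 gene (3.33%) held an isolated site, against 5.33% of all genes. It was MMP2, a gelatin-degrading protease, whose site of 235 bp was the sole site in the gene. FBN1, which encodes fibrillin-1, had 31 clustered sites among 33, and COL5A1 and COL5A2, the chains of type V collagen, had 9 among 11 and 19 among 19. Of 26 DNA replication and repair genes none held an isolated site, beside 5.33% of all genes and 4.58% of genes of 30 to 100 kb. In a list this short, none is not far from those shares. A site of any kind was held by 7 of the genes, 20 in all. The share of all genes with a site of any kind is not given here, so these counts have no background in either list. ATM, a checkpoint kinase, had no site, ATR, its relative, had 2 that were neither isolated nor clustered, and BRCA1 and BRCA2, of homologous recombination, had 3 clustered sites of 4 and 5 of 5. These lists had median lengths of 35.6 and 35.3 kb. The lists of genes differ in length and in place, and the part of either in these counts was not tested.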

How the data were processed

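BrdU-Seq peaks of synchronized BJ-hTERT cells were called by the authors against Input DNA with MACS2 2.1.0 on hg38 alignments made with Bowtie2. The deposited list holds chromosome, start and end of each peak in bp, with no score, signal or label, so depth per library is unknown. Starts were read as counted from 0, and no peak passed a chromosome end.

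Peaks were merged, and AT content, repeats and 36-mer copy number were read from hg38, genes from GENCODE 44 (a site belonged to a gene with 1 bp of overlap). Linear models (numpy 2.4.6, Python 3.11.15) compared isolated with clustered sites for 15 measures. The functions were tested on simulated data. The members, gene lists and definitions of arrays and tracts were chosen with earlier results of these data known. A pair of measures, depth of 3 or more and thymidine content, was added after the data were seen. Genes were named by their number of isolated sites (10 in all, 4 per list, ties by length), and sites by extremes of distance, width, depth and self-match. A pair of isolated sites that this rule names for their sequence is not reported here.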

Additional observations from a re-analysis of the deposited data

How the results depend on the processing

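Of 203 alternative fits and counts, those in this paragraph changed whether the interval holds 0, turned the direction, or moved the count of sites by over 1.5 times. The number of isolated sites was 3762 with a limit of 50 kb and 1210 with 200 kb. With 200 kb, the difference in stacked peaks was −4.54 points (−6.89 to −2.18), tracts differed by 0.83 points and AT content by 0.559 points. With 50 kb, the AT difference of the surroundings was −0.136, that relative to the surroundings −0.0876, and that in gene overlap −2.11 points. With 5 kb surroundings the AT differences were 0.18 and −0.095. Merging peaks within 1 kb left a tract difference of 0.61 points, and sites of 1 peak left 0.148 points, with an AT difference of 0.682. With surrounding AT as a covariate the AT difference was −0.279. Alternatives chosen after seeing the data gave, without arrays, −3.27 points for stacked peaks, 0.596 for AT content and 0.65 for multi-copy sequence, and, with width as a covariate, 5.98 points for stacked peaks. The causes of these changes were not tested.

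Other differences stayed on their side but moved by over 1.5 times. Besides those beside the results, merging within 1 kb gave 4.82 points for multi-copy sequence and −1.88 for exons, and sites of 1 peak gave 1.24 for AT of the surroundings, which was 1.07 against all other sites. Isolation at 200 kb gave −9.17 for gene overlap and −2.1 for exons. At 50 kb it gave 2.05 for multi-copy sequence, −5.06 for the coding share, and 0.5 and 0.258 on the log2 scale for TSS distance and host length. Without arrays, AT relative to the surroundings was −0.359. The differences in stacked peaks and AT content, whose intervals hold 0, also took either sign under other settings.

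Leaving out 1 chromosome at a time changed the side of 1 of 330 fits, that for exons without chromosome 2, over a range from −1.4 to −0.879 points.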
